A study of Mus musculus with 6 samples.

Results

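The genes described here are 10 markers of mural cells, the pericytes and smooth muscle cells that cover the outside of blood vessels. They were chosen by symbol, with earlier results of these data known: Cspg4, Mcam, Cdh6, Itga8, Rgs4, Rgs5, Abcc9, Higd1b, Ndufa4l2 and Des. All 10 had 1 row each among the 21785 gene rows of the deposited table, matched by mouse Ensembl gene identifier to GENCODE M21 (mm10). All 10 also passed the only filter on low values, which asked for an average of 1 or more across all 6 libraries.

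Total RNA was sequenced from pulmonary arterial smooth muscle cells (PASMCs), grown out from minced lungs of C57BL/6 mice whose arteries had been filled with iron particles so that the vessels could be collected with a magnet. All cultures were kept for 48 h without supplements. Then 3 samples received BMP9 at 1 ng/mL together with BMP10 at 5 ng/mL, both bone morphogenetic proteins, and were left in supplement-free medium for 6 h, while 3 control samples received neither ligand. Samples are numbered 1 to 3 in each group. What a number means, and whether samples came from separate animals or cultures, is not in the labels, so each p-value reflects only the spread among these 6 samples, which may be technical.

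Pericytes sit on capillaries inside the basement membrane that they share with the endothelium, and smooth muscle cells wrap the larger vessels. Pericytes are recruited to growing vessels by endothelial platelet-derived growth factor acting on the receptor PDGFRB, and lung pericytes are known for low levels of contractile proteins. BMP9 and BMP10 circulate in blood and are best known for signalling through the receptor ALK1 on endothelial cells. No single gene marks only mural cells, and several of those described here are also made by glia, fibroblasts or endothelium.

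Values are normalised read counts. The reads behind them, estimated from the steps between values, were 23.3 M to 54.4 M per library, deepest in stimulated replicate 3. The labelled cell type was set against its markers, and all 12 smooth muscle contractile genes were detected. Their summed level was 81933 to 102730 in controls and 153821 to 278740 in stimulated samples. They were led by Acta2, smooth muscle actin, at 23470 to 37627 in controls and 69094 to 153164 in stimulated samples. Of the 12, 5 rose by limma (8.61% of all genes did). Neither detection nor a rise shows which cells made this RNA. Markers of other cells were present as well. The summed level of 12 fibroblast markers was 308245 to 411842 in controls and 268486 to 467909 in stimulated samples, led by Col1a1, and that of 8 macrophage markers was 91241 to 156656 and 137002 to 204024, led by Lyz2. The 18 endothelial markers, led by Cdh5, summed to 15186, 53946 and 17436 in control replicates 1, 2 and 3 and to 13773, 54662 and 22455 in the stimulated ones, so replicate 2 stood apart in both groups. In bulk RNA, fewer cells of a type and less RNA per cell cannot be told apart.

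The sequences upstream of 4 of these genes are shown because the 4 are the ones that rose in at least 1 of the fits: Cspg4 and Cdh6, whose groups did not overlap, and Rgs4 and Rgs5, a pair of neighbouring relatives. They are the RefSeq promoter sequences (GRCm38.p6, the patch series of mm10), 5′ to 3′ on the gene's strand, ended before the first transcribed base of both RefSeq and GENCODE. Capitals mark matches to GGCGCC, a GC-rich form of the BMP-SMAD element, and to TATAAA, the TATA box.
Cspg4, chr9:56864854-56865032, plus strand: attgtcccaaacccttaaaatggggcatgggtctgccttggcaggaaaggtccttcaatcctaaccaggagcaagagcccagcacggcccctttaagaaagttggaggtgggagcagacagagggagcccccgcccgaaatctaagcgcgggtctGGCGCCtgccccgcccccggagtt
Cdh6, chr15:13173676-13173925, minus strand: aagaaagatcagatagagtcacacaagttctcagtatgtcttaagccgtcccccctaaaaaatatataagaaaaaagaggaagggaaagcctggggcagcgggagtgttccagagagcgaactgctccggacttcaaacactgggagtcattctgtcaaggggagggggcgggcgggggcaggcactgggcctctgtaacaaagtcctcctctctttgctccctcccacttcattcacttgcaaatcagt
Rgs4, chr1:169747643-169747892, minus strand: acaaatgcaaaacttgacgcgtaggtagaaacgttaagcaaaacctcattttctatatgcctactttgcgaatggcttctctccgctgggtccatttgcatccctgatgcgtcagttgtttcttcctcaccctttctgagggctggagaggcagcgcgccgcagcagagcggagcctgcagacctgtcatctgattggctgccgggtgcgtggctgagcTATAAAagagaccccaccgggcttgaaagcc
Rgs5, chr1:169655251-169655500, plus strand: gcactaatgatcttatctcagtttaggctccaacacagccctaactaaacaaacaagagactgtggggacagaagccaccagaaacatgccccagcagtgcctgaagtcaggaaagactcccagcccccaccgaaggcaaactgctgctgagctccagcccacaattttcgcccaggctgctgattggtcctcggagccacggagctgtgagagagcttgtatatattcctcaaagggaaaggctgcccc
In the full windows of 300 bases (250 before and 50 after the RefSeq start), 8 of the 10 genes had a sequence, and both strands were searched for motifs that did not overlap one another. GGCGCC was found in 3 of 8 windows, those of Cspg4, Mcam and Des, against 11.9% of 32851 promoter windows of the mouse genome. CAGCTG, a form of the E-box, was found in 3 of 8 (Rgs5, Abcc9 and Des) against 16.3%, and TATAAA in 1 of 8, that of Rgs4, where it starts 31 bases before the transcription start, against 13.6%. Neither the palindromic SMAD element GTCTAGAC (0.213% of all windows) nor the CArG box bound by serum response factor (1.63%) had a match in the 8 windows. The upstream sequences of Cdh6 and Rgs5 hold none of these motifs.

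Stimulation was followed by a rise of Cspg4 and Cdh6, and by no call for the other 8 genes when the groups were compared as a whole. The test was limma on log2(value + 1) over all 21743 genes that passed the filter, with Benjamini-Hochberg adjustment and a threshold of 0.05, and changes are given on that scale ± SE, stimulated minus control. Of the 10 genes, 2 rose (20%) and none fell, against 8.61% of all genes tested that rose and 4.75% that fell. Of all genes called, 64.5% were higher, a share that went to 33.4% with equal library totals and 51.2% with upper-quartile factors, while Cspg4 and Cdh6 were called higher under each. The median log2 change of the 10 was -0.13, beside -0.03 for all genes tested. The replicate numbers were taken as pairs because deviations from the group means correlated between same-numbered libraries (r = 0.747, 0.741 and 0.218). The pairing was weakest for number 3, as control replicate 3 correlated more with stimulated replicate 1 (r = 0.287). With the number as a block, limma called 4 of the 10 higher (40%) and none lower, against 14.9% and 12% of all genes: Rgs4 and Rgs5 joined Cspg4 and Cdh6. The 8 genes not called without the block had overlapping groups. The groups did not overlap for 2 of the 10, both higher, against 33.2% of all genes in either direction and 17.8% that were higher without overlap. In 5 of the 10, the stimulated library lay on the same side of its control in all 3 numbers, against 55.4% of all genes.

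**Figure D1:**
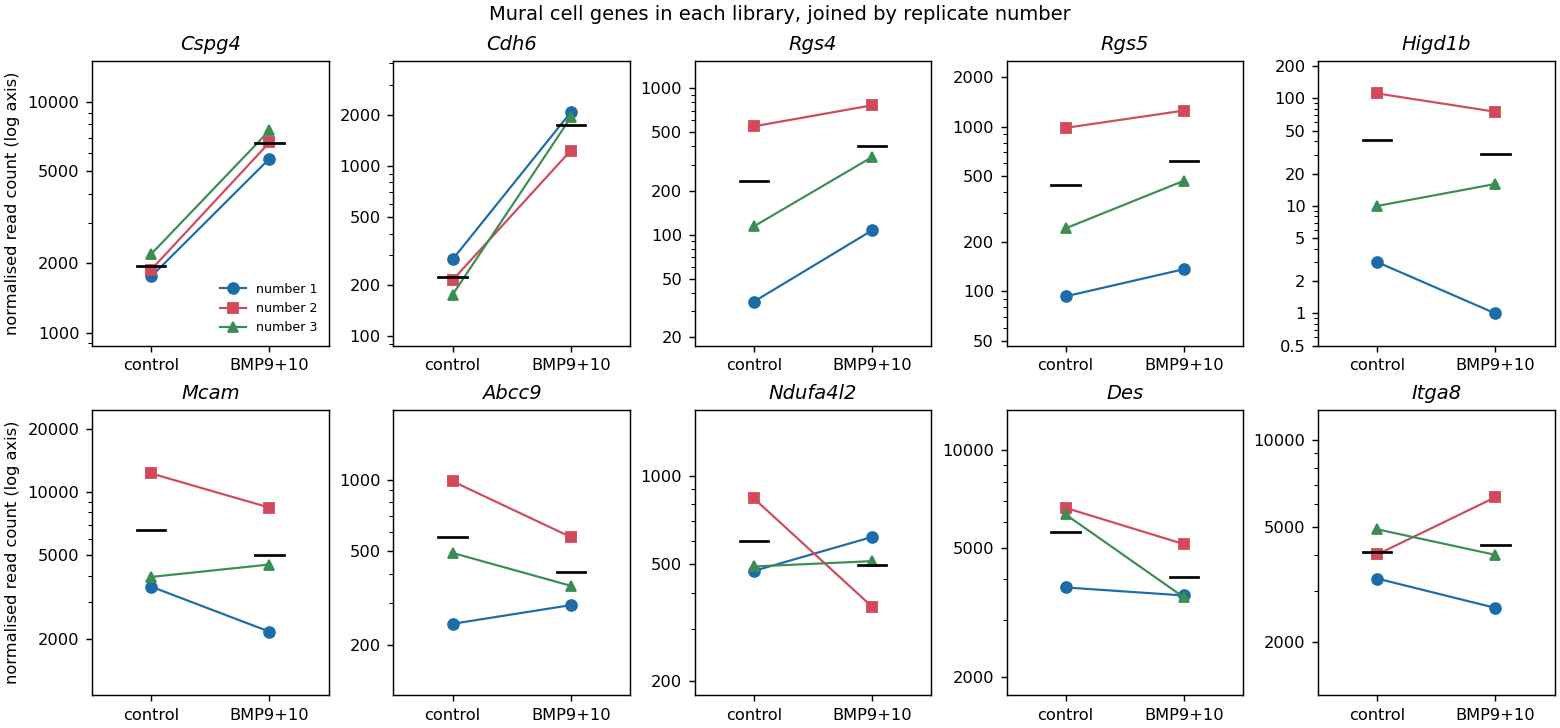
Normalised read count (log axis) of each of the 10 mural cell genes in the 3 control and 3 stimulated (BMP9+10) libraries; lines join libraries with the same replicate number and black bars are group means (n = 3). Cspg4 and Cdh6 are higher in all stimulated libraries, while Rgs4, Rgs5 and Higd1b are ordered by replicate number, with number 2 highest in both groups.

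Among the surface and adhesion genes, Cspg4 had the most even rise. It encodes the proteoglycan NG2, which binds growth factors and matrix on pericytes, and lies on chromosome 9 from 56865033 to 56899870. Its level was 1752, 1876 and 2192 in control replicates 1, 2 and 3 and 5679, 6681 and 7527 in the stimulated ones. Every stimulated library stood above every control, and the ratio of stimulated to control was 3.24, 3.56 and 3.43 for numbers 1, 2 and 3. The mean went from 1940 ± 227 to 6629 ± 925 (SD, n = 3), a log2 change of 1.77 ± 0.13 (limma adjusted p = 0.000832). Within groups Cspg4 had an SD of 0.19 on the log2 scale, beside a median of 0.16 for the 13185 genes averaging 50 or more.

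Cdh6, on chromosome 15 from 13028701 to 13173675, had the largest change of the 10. It encodes cadherin 6, a type II cadherin of cell-cell contacts. Its level was 282, 213 and 175 in controls and 2065, 1230 and 1925 in stimulated samples, so the groups were far apart and stimulated replicate 2 was the lowest of its group. The ratio by number was 7.32, 5.77 and 11.0, and the log2 change was 2.95 ± 0.25 (limma adjusted p = 0.0011). Both Cspg4 and Cdh6 passed under all 18 alternative settings.

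The other listed cadherins served as a comparison for Cdh6. Of the 7 analysed, 1 rose and none fell, against 8.61% and 4.75% of all genes. The 1 that rose was Cdh11, the cadherin of mesenchymal cells, from 8375 ± 1131 to 14067 ± 2811 (0.74 ± 0.17, limma adjusted p = 0.0309). It no longer passed with equal library totals (0.0598) or when any of 4 single libraries was left out: control replicate 1 (0.107) or 3 (0.101) and stimulated replicate 2 (0.0669) or 3 (0.122). The same was so without the number 2 libraries of both groups (0.0594), and it passed with the block (0.000662). The log2 ratio of Cdh6 to Cdh11 within a library was -4.68, -5.47 and -5.58 in controls and -2.43, -3.77 and -2.89 in stimulated samples, without overlap. It rose by 2.21 on average. A two-sided exact permutation test gave p = 0.1, the smallest that 3 against 3 allows, and 0.233 after adjustment over the 7 ratios tested. Per kilobase of exon, Cdh6 (193 ± 49.6 in stimulated samples) remained below Cdh11, which was at 1580 in the same unit.

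Mcam encodes CD146, an adhesion molecule found on both pericytes and endothelium (chromosome 9, 44134469 to 44142727). Its level was 3543, 12246 and 3943 in controls and 2165, 8426 and 4517 in stimulated samples. Replicate 2 was far above the others in both groups, and the groups overlapped. The log2 change was -0.35 ± 0.61 (limma adjusted p = 0.755), with differences of -0.71, -0.54 and 0.20 for numbers 1, 2 and 3. Its laminin ligand gene Lama4 was also highest in replicate 2 of each group and had a change of -0.60 ± 0.32 (limma adjusted p = 0.265), which passed as a fall with the block (0.00141). Lama4 was chosen after its values were seen.

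Itga8 encodes integrin alpha 8, which pairs with integrin beta 1 and binds nephronectin (chromosome 2, 12106632 to 12301922). Its level was 3311, 4014 and 4902 in controls and 2621, 6332 and 3998 in stimulated samples. The groups overlapped fully, with a log2 change of 0.01 ± 0.31 (limma adjusted p = 0.990) and opposite directions by number (-0.34, 0.66 and -0.29). With equal library totals or upper-quartile factors its small change turned negative. The partner gene Itgb1 rose from 51283 ± 2306 to 82595 ± 9155 (0.68 ± 0.10, limma adjusted p = 0.00822), a call lost in 1 of 18 alternative settings, without stimulated replicate 3 (0.0516). Relative to Itgb1 in the same library, the log2 ratio of Itga8 changed by -0.67, with overlapping groups (exact permutation p = 0.2, adjusted p = 0.35).

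The G-protein brakes Rgs4 and Rgs5 differed more between replicate numbers than between the groups. They encode regulators of G-protein signalling that shorten the signal of receptors for vasoconstrictors, and Rgs5 is one of the most used pericyte markers. The genes are neighbours on chromosome 1, Rgs5 from 169655501 to 169695813 on the plus strand and Rgs4 from 169741477 to 169747642 on the minus strand, so their 3′ ends face each other across 45.7 kb with no protein-coding gene between. Rgs5 was at 93, 984 and 241 in controls and at 136, 1253 and 469 in stimulated samples. Rgs4 was at 35, 547 and 114 in controls and at 107, 761 and 338 in stimulated samples. For both genes replicate 2 was highest and replicate 1 lowest in each group, and the groups overlapped.

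Compared number by number, both rose in every pair. The ratio of stimulated to control was 1.46, 1.27 and 1.95 for Rgs5 and 3.06, 1.39 and 2.96 for Rgs4. Without the block the changes of 0.62 ± 1.02 for Rgs5 and 1.21 ± 1.06 for Rgs4 did not pass (limma adjusted p = 0.742 and 0.512). With the block they became 0.62 ± 0.14 and 1.21 ± 0.23 and passed (0.0178 and 0.0107). The call of Rgs5 under the block was lost with equal library totals (0.0518), and that of Rgs4 was kept (0.0181). The log2 ratio of Rgs4 to Rgs5 was -1.39, -0.85 and -1.07 in controls and -0.34, -0.72 and -0.47 in stimulated samples. These groups did not overlap and differed by 0.59 (exact permutation p = 0.1, the smallest possible, adjusted p = 0.233). Rgs4 gained on Rgs5 in each number, and with 3 against 3 this test cannot reach 0.05.

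**Figure D2:**
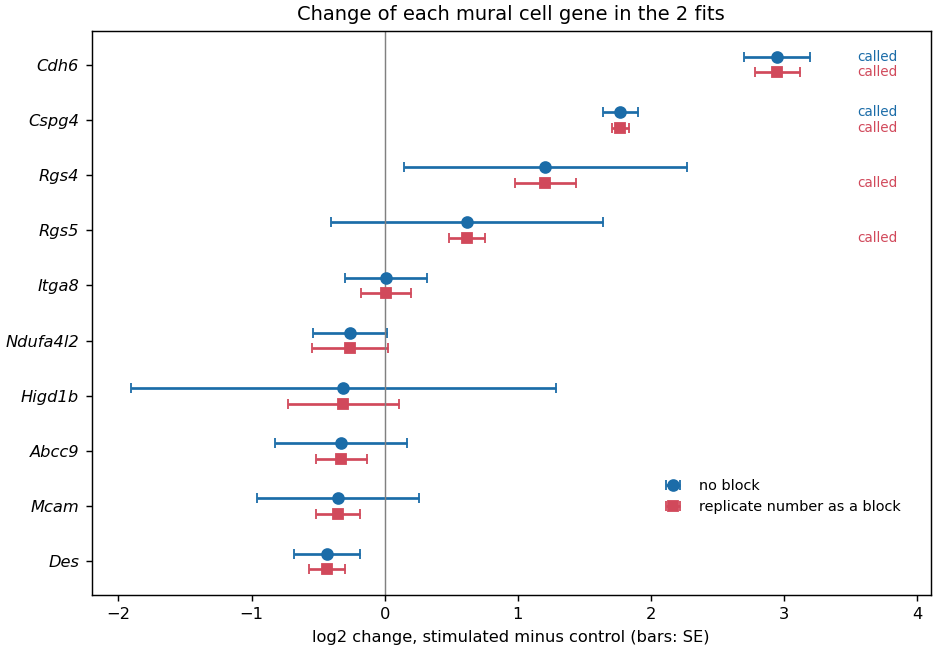
Log2 change (stimulated minus control) of each of the 10 genes, with bars for the SE, in the limma fit without a block (circles) and with the replicate number as a block (squares); "called" marks an adjusted p under 0.05. The estimates are equal in both fits, and the SE of Rgs4 falls from 1.06 to 0.23 and that of Rgs5 from 1.02 to 0.14 with the block.

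Other members of the same RGS subfamily had no call without the block (0 of 6 by limma, against 13.4% of all genes called in either direction). With the block, 2 of the 6 passed, both higher, Rgs1 and Rgs16, named here after their values were seen, against 14.9% of all genes called higher in that fit. Rgs16 was at 415, 362 and 292 in controls and 468, 1545 and 728 in stimulated samples (1.19 ± 0.32 with the block, limma adjusted p = 0.0346). Rgs2, the relative with the highest mean, had a change of 0.04 ± 0.23 (limma adjusted p = 0.93).

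Abcc9 encodes SUR2, the regulatory subunit of the ATP-sensitive potassium channel of vascular mural cells, and the pore of that channel is encoded by the neighbouring gene Kcnj8. Both lie on the minus strand of chromosome 6, Abcc9 from 142587862 to 142702315, 16.2 kb from Kcnj8. Abcc9 was at 245, 983 and 489 in controls and at 294, 571 and 355 in stimulated samples. Replicate 2 was again highest in each group, and the log2 change was -0.33 ± 0.49 (limma adjusted p = 0.717; -0.33 ± 0.19 and 0.257 with the block). Kcnj8 was at 228, 879 and 366 in controls and at 209, 261 and 170 in stimulated samples. Its change of -0.99 ± 0.46 did not pass without the block (limma adjusted p = 0.211) and passed with it (-0.99 ± 0.28, 0.041).

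The log2 ratio of Abcc9 to Kcnj8 was 0.10, 0.16 and 0.42 in controls and 0.49, 1.13 and 1.06 in stimulated samples. It was higher in every stimulated library than in any control, by 0.66 on average (exact permutation p = 0.1, the smallest possible, adjusted p = 0.233). The alternative subunits Abcc8 and Kcnj11, used in pancreatic islet cells, were at 7 or less in every library.

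The mitochondrial members did not pass in either fit. Higd1b encodes a small inner-membrane protein of the hypoxia-inducible HIG1 family and is a marker of lung pericytes (chromosome 11, 102835849 to 102838040). It was at 3, 111 and 10 in controls and at 1, 75 and 16 in stimulated samples. The values in both replicate 1 libraries rest on 3 reads or fewer, so no fold is given for that number. The log2 change was -0.31 ± 1.6 (limma adjusted p = 0.926). Its ubiquitous relative Higd1a was even across libraries, from 904 to 999 in controls and 1157 to 1202 in stimulated samples (0.30 ± 0.08, limma adjusted p = 0.0603, and 0.0231 with the block). The call of Higd1a under the block was lost with equal library totals (limma adjusted p = 0.227). Of the exonic bases of Higd1a, 22.5% are also exonic on the other strand, so its level is uncertain if the counting did not use strand.

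Ndufa4l2 encodes a relative of the respiratory chain subunit NDUFA4 that is induced by hypoxia (chromosome 10, 127514967 to 127517154). It was at 474, 838 and 491 in controls and at 619, 358 and 512 in stimulated samples. Replicate 2 was the highest control and the lowest stimulated library, and the differences by number were 0.38, -1.22 and 0.06. The log2 change of -0.26 ± 0.28 did not pass (limma adjusted p = 0.598; 0.543 with the block). Ndufa4 itself was at 2763 to 2852 in controls and 2892 to 3252 in stimulated samples, a change of 0.10 ± 0.08 (limma adjusted p = 0.476) that turned negative with equal library totals. The log2 ratio of Ndufa4l2 to Ndufa4 changed by -0.36 (exact permutation p = 0.4, adjusted p = 0.56), and that of Higd1b to Higd1a by -0.61 (p = 0.8 by the same test, adjusted p = 0.8).

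Des encodes desmin, the intermediate filament protein of muscle and pericytes (chromosome 1, 75360329 to 75368579). It was at 3780, 6649 and 6344 in controls and at 3571, 5141 and 3526 in stimulated samples. Each stimulated library was below the control of its number, by 0.08, 0.37 and 0.85 on the log2 scale, yet the groups overlapped. The change of -0.43 ± 0.25 did not pass (limma adjusted p = 0.302), nor did it with the block (-0.43 ± 0.14, 0.0578). Striated muscle also makes desmin, and its 7 markers analysed, led by Tnnt2, summed to 112 to 333 in controls and 101 to 219 in stimulated samples, while Myod1, Pax7 and Myf5 were not analysed here. The part of striated muscle in the level of Des was not tested. Among the other intermediate filament genes, Nes rose, while Vim, the main filament gene of mesenchymal cells, was at 111780 to 121383 in controls and 97181 to 111757 in stimulated samples (-0.18 ± 0.09, limma adjusted p = 0.242, and 0.0289 with equal library totals). Relative to Vim, the log2 ratio of Des changed by -0.25, with overlapping groups (exact permutation p = 0.5, adjusted p = 0.583).

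Levels per kilobase of exon, from normalised read counts, put Mcam (1963 ± 1467, SD, n = 3) and Des (1489 ± 420) highest of the 10 in controls. These 2 differed by less than their spread. Itga8 (553 ± 108) and Ndufa4l2 (549 ± 188) followed, also within their spread of each other, and then Cspg4 (163 ± 19.0). Rgs5 (96.6 ± 105), Rgs4 (74.9 ± 89.0), Abcc9 (68.4 ± 44.9), Higd1b (48.8 ± 71.4) and Cdh6 (24.7 ± 6.01) were lowest and did not differ from their neighbours in this order beyond their spread. In stimulated samples Cspg4, at 556 ± 77.5, reached the level of Itga8 (586 ± 255), and Cdh6, at 193 ± 49.6, stood above Rgs5 (136 ± 126) and Rgs4 (130 ± 107) by less than their spread. Pdgfrb, the receptor gene of mural cells, had a higher mean than each of the 10 in both groups (2697 ± 149 and 4378 ± 168).

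The 10 genes differed in how they varied between replicates of 1 group. The pooled within-group SD on the log2 scale was 0.19 for Cspg4, larger than in 56.2% of 13185 genes with a mean of at least 50. It was 1.72 for Rgs4 (larger than in 99.6%), 1.65 for Rgs5 (99.5%), 0.99 for Mcam (97.2%) and 0.79 for Abcc9 (95%). Higd1b had the largest SD of the 10, 2.55, but its mean was under 50, so it is not set against those genes. The other mural gene Pdgfrb had an SD of 0.07, larger than in 9.67%.

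For Higd1b, Rgs4, Rgs5, Mcam and Abcc9, replicate 2 was highest and replicate 1 lowest in each group, so both added to that spread. In controls replicate 2 held 17.1 times the mean of replicates 1 and 3 for Higd1b, 7.34 times for Rgs4 and 5.89 times for Rgs5. It held 3.27 times that mean for Mcam and 2.68 times for Abcc9. In stimulated samples the same ratios were 8.82, 3.42, 4.14, 2.52 and 1.76. For Cspg4 they were 0.951 and 1.01, and for Cdh6 0.932 and 0.617. Replicate 2 was highest in both groups for 6 of the 10 genes, against 22.7% of all genes tested. In controls alone it was highest for 7 of 10 (38.8% of all genes), and in stimulated samples alone for 7 of 10 (36.9%).

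The same replicate held the most endothelial RNA: each of the 18 endothelial markers peaked there in controls and stimulated samples alike, with a median ratio to replicates 1 and 3 of 3.63 in controls and 3.56 in stimulated samples. Replicate 2 was also highest in both groups for 6 of 7 mesothelial, 5 of 8 lung epithelial and 5 of 6 Schwann cell markers. The same held for 17 of 26 other mural cell genes, 7 of 12 fibroblast, 3 of 12 contractile and 1 of 8 macrophage markers. In stimulated samples alone, all 12 contractile markers were highest in replicate 2, with a median ratio to replicates 1 and 3 of 1.59. In controls 3 of the 12 were, and the median ratio was 0.89. The summed epithelial markers were at 6847, 28277 and 7044 in controls and 3073, 34397 and 15908 in stimulated samples. The mesothelial sums were 2145, 8610 and 2384 in controls and 585, 4574 and 2436 in stimulated samples. The Schwann cell sums, of interest because glia also make Cspg4 and Mcam, were 2628 to 3947 and 1564 to 2921. The part of these cells in the levels of the mural genes was not tested. Cspg4 and Cdh6 passed without both replicate 2 libraries as well.

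**Figure D3:**
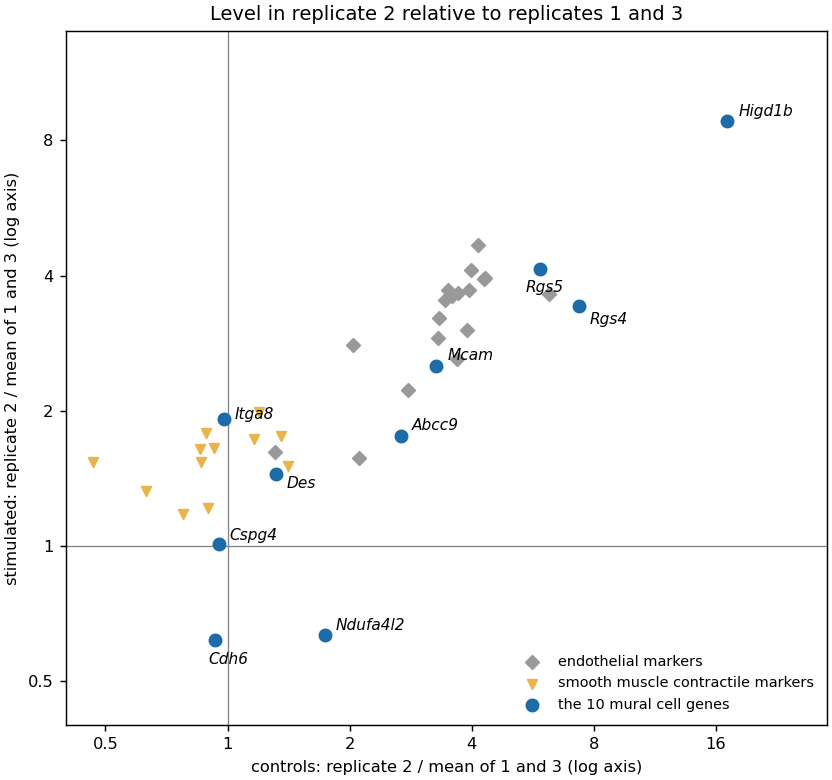
Level in replicate 2 divided by the mean of replicates 1 and 3, in controls (x) and in stimulated samples (y), both on log axes, for the 10 mural cell genes (circles), 18 endothelial markers (diamonds) and 12 smooth muscle contractile markers (triangles). Higd1b, Rgs4, Rgs5, Mcam and Abcc9 lie above 1 on both axes, as the endothelial markers do, and Cspg4 lies near 1 on both.

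A second list of 26 mural cell genes was also counted. Of the 26, 3 rose, 1 fell and 22 did not pass (11.5% and 3.85%, against 8.61% and 4.75% of all genes), with a median log2 change of -0.08. The rises were Foxs1, a forkhead factor of perivascular cells, from 180 ± 13 to 799 ± 214 (2.11 ± 0.21, limma adjusted p = 0.00204), Pdgfrb, from 14775 ± 817 to 23982 ± 921 (0.70 ± 0.08, 0.00272), and Nes, the filament gene nestin, from 12524 ± 877 to 18286 ± 99.8 (0.55 ± 0.08, 0.00637). These 3 passed under all 18 alternative settings. Ebf1, a transcription factor of the mural lineage, fell from 342 ± 46.0 to 175 ± 30.1 (-0.97 ± 0.18, limma adjusted p = 0.0165). The call of Ebf1 ended when control replicate 1 (0.0723) or 3 (0.075), or stimulated replicate 3 (0.0618), was left out. Notch3, the mural Notch receptor, was at 943 ± 152 and 1182 ± 415 (0.27 ± 0.26, limma adjusted p = 0.547).

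With the replicate block, 5 of the 26 rose (19.2%) and 8 fell (30.8%), against 14.9% and 12% of all genes. Apart from Kcnj8 and Ebf1, the genes named for a call under the block only were chosen after their values were seen. Postn, a matrix gene, and Heyl, a Notch and BMP target, joined the rises. The call of Postn under the block was lost with equal library totals (limma adjusted p = 0.0809). Heyl was at 865, 2742 and 1025 in controls and 2604, 7040 and 4456 in stimulated samples, with replicate 2 highest in both groups (1.69 ± 0.14 with the block, limma adjusted p = 0.000491; 1.69 ± 0.51 and 0.0718 without it).

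Gucy1a1, a subunit of the nitric oxide receptor guanylate cyclase, was at 702, 2673 and 1013 in controls and at 235, 818 and 391 in stimulated samples. The groups overlapped, while the ratio was 0.335, 0.306 and 0.386 by number, and the change of -1.55 ± 0.09 passed with the block (limma adjusted p = 0.000161; 0.136 without it). Its partner subunit gene Gucy1b1 had a change of -0.16 ± 0.08 with the block (limma adjusted p = 0.199). With the block and equal library totals, Gucy1b1 was called lower too. The endothelin receptor gene Ednra (-0.91 ± 0.07 with the block, 0.00031 by limma), the sphingosine phosphate receptor gene S1pr3 (-0.93 ± 0.11, 0.00204) and Pde5a, which breaks down cyclic GMP (-0.71 ± 0.07, 0.00109), also passed as falls with the block and not without it at the deposited scaling. Without the block, Ednra, whose groups did not overlap, passed as a fall with equal library totals (limma adjusted p = 0.0436). Kcnj8, Steap4 and P2ry14 were the remaining ones besides Ebf1.

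**Figure D4:**
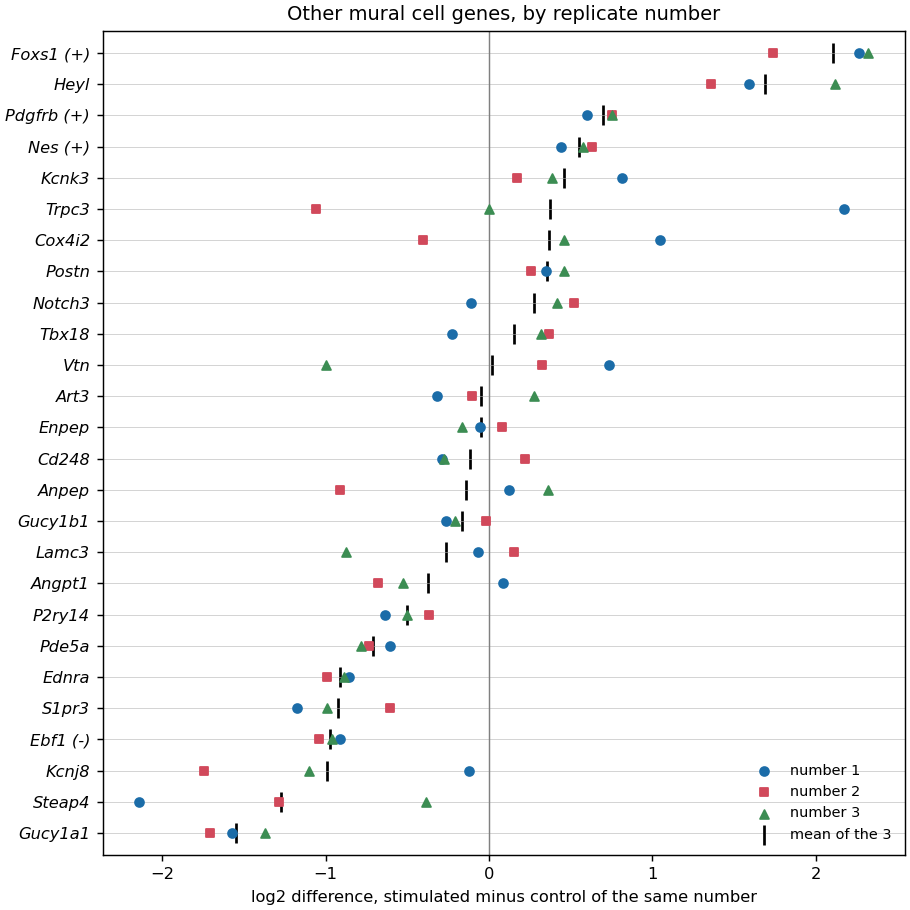
Log2 difference between the stimulated and the control library of the same number for each of 26 other mural cell genes, with black bars for the mean of the 3; (+) and (-) mark genes called higher or lower by limma without the block. All 3 numbers lie on the same side of 0 for 15 of the 26 genes, against 55.4% of all genes tested. Among the 15, Foxs1, Heyl, Pdgfrb and Nes lie to the right of 0, and Gucy1a1, Ebf1, S1pr3, Ednra and Pde5a to the left.

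Across the relatives and binding partners of the 10 genes, 27 of 30 listed were analysed, and Rgs13, Higd1c and Cdh9 were not analysed here. Of the 27, 3 rose (Nes, Cdh11 and Itgb1; 11.1%) and none fell by limma, with 24 not called, against 8.61% and 4.75% of all genes. With the block 8 rose (29.6%) and 3 fell (11.1%), against 14.9% and 12% of all genes. Nes and Kcnj8 stand on both the relatives' list and the list of other mural genes. The gene of nephronectin (Npnt, chosen after its values were seen), the ligand of integrin alpha 8, was at 859, 3092 and 1790 in controls and 958, 5974 and 2631 in stimulated samples, and passed with the block (0.55 ± 0.14, limma adjusted p = 0.0293) and not without it (0.662). Npnt was not called with the block and equal library totals.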

How the data were processed

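Libraries came from a stranded total RNA kit, per the labels' protocols. The submitters' processing notes name Trimmomatic 0.38 and FastQC, STAR 2.6.1d, featureCounts 1.6.3 and DESeq2 1.18.1, with mm10 among the builds. No source used here gives the annotation or whether counting used strand. Each deposited value is a score: the steps between values fit read counts times a factor of the library (0.584 to 1.32, estimated) and rounded, so no count model was used. Normalised totals were 27295973 to 31903795. Identifiers were matched to GENCODE M21 (21747 of 21785). Opposite-strand exons cover at most 5.86% of the exonic bases of the 10 genes.

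Fits used limma 3.58.1 with an intensity trend in R 4.3.3, and the code was checked on simulated data. Alternatives were 4 scalings (equal totals, upper quartile, RLE and TMM), 2 pseudocounts (0.1 and 5), 2 filters, limma-voom, the replicate block, and leaving out libraries. Deviations from the group means, over the 13185 genes averaging 50 or more, correlated between same-numbered libraries (r = 0.747, 0.741 and 0.218). By the rule that every pair must exceed 0.1, the numbers were taken as pairs, although control replicate 3 was closer to stimulated replicate 1 (0.287). Ratios were tested with a two-sided exact permutation test over 20 assignments.

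The members and gene lists were chosen with earlier results of these data known. Named genes are the 10, each gene of the mural and relatives' lists past the threshold without the block, Pdgfrb, Notch3, Kcnj8, the ratio denominators and the top gene of marker lists. Others are marked as chosen after their values were seen, except Gucy1b1, Abcc8 and Kcnj11, which were named outside these rules as partner or alternative subunits.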

Additional observations from a re-analysis of the deposited data

How the results depend on the processing

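Cspg4 (log2 change 1.6 to 1.88) and Cdh6 (2.78 to 3.18) passed under all 18 alternatives, with adjusted p at most 0.0167 and 0.0142 by limma. Of the 10 genes, 2 rose and none fell in every fit that left out 1 library, and with the replicate block 4 rose (Rgs4 and Rgs5 joined), with no other call among the 10 changed. With the block and equal library totals, Mcam (0.0428) and Des (0.0165) were called lower, 2 of the 10. That fit called 6957 of all 21743 genes, 29.3% of them higher and the rest lower. Equal totals moved the median log2 change of all genes from -0.03 to -0.20; the change of Itga8 became -0.16 there, with and without the block, and -0.071 with upper-quartile factors, and that of Ndufa4 became -0.076 in both fits with equal totals. Without both replicate 2 libraries, Ndufa4l2 was at 0.22 and Itga8 at -0.32.

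Leaving out 1 library turned the direction of 6 uncalled members: the ranges were -0.18 to 1.52 for Rgs5, -0.83 to 0.22 for Mcam, -0.83 to 0.17 for Abcc9, -1.55 to 1.08 for Higd1b, -0.44 to 0.0051 for Ndufa4l2 and -0.31 to 0.32 for Itga8. Rgs5 turned without control replicate 1 or stimulated replicate 2, and Mcam and Higd1b without control replicate 2 or stimulated replicate 1. The log2 ratio of Higd1b to Higd1a changed by -1.85 to 0.80 when 1 library was left out.

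Of the other mural cell genes, 3 rose and 1 fell, against 3 lower with equal totals, 5 higher and 8 lower with the replicate block, and 9 lower with the block and equal totals; leaving out 1 library gave 3 to 4 higher and 0 to 1 lower. Of the relatives and partners, 3 rose and none fell, against 2 lower with equal totals, 1 lower with a pseudocount of 5, 8 higher and 3 lower with the block, and 6 higher and 7 lower with the block and equal totals; leaving out 1 library gave 1 to 4 higher, the lowest without stimulated replicate 3, and 0 lower. Over all genes, too, most calls were lower with equal totals (3400 calls, 33.4% higher) and with the block and equal totals (6957 calls, 29.3% higher). The paired mean of each ratio equals its unpaired difference (0.59 for Rgs4 to Rgs5 with the replicate block). The cause of these shifts was not tested. Low values limit Higd1b, whose replicate 1 values rest on 3 reads or fewer and which had no value under the filter of at least 1 CPM in 3 libraries.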
